A study of Saccharomyces cerevisiae with 2 samples.

Results

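The subtelomeric regions of Saccharomyces cerevisiae were examined on tiling arrays of histone H3, the core histone around which, with its partners, nuclear DNA is wrapped. A probe was counted as subtelomeric when its start lay under 20 kb on its chromosome, or when its end lay within 20 kb of the last probe of that chromosome. This rule uses position only and no measured value. It took 1475 of the 41775 probes for yeast sequence, and 1436 of these passed the spot filters. The other 40005 nuclear probes, of which 39224 were kept, are called internal here.

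Material came from 1 strain, MDY510, in which H3 carries a Myc tag. The labels do not say whether untagged H3 is also present in these cells. Cells were held in alpha factor, the mating pheromone that arrests a-type cells before S phase, without induction by galactose. After sonication, chromatin was pulled down with a monoclonal antibody to Myc. Up to 75 ng of precipitated DNA was linearly amplified and 3 µg of amplified RNA was labelled. Per the labels, Cy5 holds the Myc-H3 precipitate (IP) and Cy3 the sonicated input, the whole-cell extract (WCE), on both arrays. There was 1 group of 2 arrays, replicates 1 and 2, with no untagged control and no dye swap. Nothing in the labels says that the replicates were separate cultures, so the spread between them may be technical.

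Chromosome ends in budding yeast are packaged by the Sir proteins, which bind deacetylated nucleosomes and keep nearby genes silent to varying degrees. The outermost DNA holds X and Y' repeat elements, and further in lie families of related genes for sugar use, cell walls, metal uptake and membrane proteins. Many of these genes are off in rich medium and come on under stress or on other nutrients. Elsewhere in the genome, the promoters of active genes often hold a nucleosome-depleted stretch, whereas coding sequence is covered by regular nucleosomes. Because family members can be nearly identical, a probe for one copy can also bind DNA of another, and values for such families are uncertain in that respect.

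All values below are log2 ratios of Cy5 over Cy3, centred so that 0 is the median probe of each array, with SDs over the 2 arrays. The direction rests on the labels. The 230 kept mitochondrial probes, whose genome carries no histones, lay 4.84 ± 0.10 above the nuclear probes in this ratio, which goes against the labelled channels. Every sign below turns if the channels were exchanged, so the channels are called labelled IP and labelled WCE. Replicates 1 and 2 correlated at r = 0.985 over the subtelomeric probes and 0.988 over the internal ones, across probes of 2 arrays and not across independent samples. Of all kept nuclear probes, between 4.86% and 8.47% were saturated in a given channel and array, which compresses ratios.

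A larger share of kept probes was intergenic in the subtelomeric windows than in the rest of the nuclear chromosomes. These shares count probes on the array and not sequence. Of the 1436 kept probes, 571 (39.8%) were coding, 444 lay in tandem promoters (between genes that run the same way), 122 in divergent promoters (between genes that run apart), 226 downstream of genes and 73 had no annotation. Intergenic probes made up 55.2% of the subtelomeric set and 25.9% of the internal one. The coding probes belonged to 142 named genes. Coverage differed between ends. The left end of chromosome 9 had 2 probes, the first at 19615 bp, and the left end of chromosome 10 had 1, whereas the first probe of chromosome 7 began at 41 bp. Neither labels nor file headers used here name the genome build of these coordinates. Left distances run from coordinate 0 and right distances from the last probe, so the true distance to the right telomeres is larger by an unknown length.

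Promoters near chromosome ends had lower ratios than promoters elsewhere, whereas coding sequence had about the same ratio in both places. Subtelomeric tandem promoter probes averaged -0.03 on replicate 1 and -0.01 on replicate 2 (mean -0.02 ± 0.02), against 0.26 and 0.30 for the internal ones (0.28 ± 0.03). Both arrays thus placed the subtelomeric set near the array median and the internal set clearly above it. Subtelomeric divergent promoter probes averaged 0.07 ± 0.02 against 0.41 ± 0.03 internally. Downstream probes averaged -0.05 ± 0.02 against 0.03 ± 0.03, and coding probes -0.08 ± 0.02 against -0.06 ± 0.02.

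Each chromosome's ends were then set against its own interior, and the differences were averaged with equal weight over the 16 chromosomes. Tandem promoters were lower by -0.28 ± 0.01 (SD, 2 arrays), with a lower value on 16 of 16 chromosomes (exact permutation test that flips the sign of each chromosome, two-sided, p = 3.05e-05, the smallest this test can give; adjusted p = 9.16e-05 over 6 comparisons). Chromosome 7 had the largest tandem promoter difference, -0.54, and chromosome 14 the smallest, -0.13. All intergenic probes together were lower by -0.28 ± 0.01 on 15 of 16 chromosomes (exact permutation test, adjusted p = 0.000122), and chromosome 8 alone had a difference near 0. This pool mixes classes in unequal shares. Downstream probes, with an internal mean of 0.03 below that of either promoter class, were 226 of 792 subtelomeric and 1636 of 10144 internal intergenic probes. The part of these shares in the pooled difference was not tested.

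Divergent promoters were lower by -0.28 ± 0.001 on 15 of 16 chromosomes (exact permutation test, adjusted p = 0.00677). The exception, chromosome 2 at 0.70, had a single subtelomeric divergent probe. The call for divergent promoters was lost when medians replaced means within chromosomes, at -0.19 with adjusted p = 0.0589 in the exact permutation test, and after normexp and loess, at -0.05 with adjusted p = 0.277.

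Coding probes differed by -0.02 ± 0.002, lower on 7 of 16 chromosomes, and this difference did not pass (exact permutation test, adjusted p = 0.395). Downstream probes differed by -0.08 ± 0.01, lower on 13 of 16 chromosomes, and did not pass either (adjusted p = 0.125, exact permutation test). Chromosome 8 stood highest in the downstream class at 0.44, from 18 probes. Both calls changed when only probes of 60 nt were used, with -0.05 for coding (exact permutation test, adjusted p = 0.0377) and -0.08 for downstream probes (adjusted p = 0.0394, same test). In a 10 kb window the downstream difference was -0.19 (adjusted p = 0.000977, exact permutation test). The test compares chromosomes of the same 2 arrays and says nothing of how cultures vary. With 2 arrays as units no p under 0.5 could be had.

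The promoter to coding contrast, large inside chromosomes, was small near their ends. Promoter probes exceeded coding probes by 0.08 ± 0.004 in the subtelomeric windows and by 0.39 ± 0.01 in the interior. Under the labelled channels this sets internal promoters above coding sequence, although promoters of active genes often hold a nucleosome-depleted stretch. The reason was not tested, and the sign turns if the channels were exchanged. The difference between these contrasts, as a mean over chromosomes, was -0.30 ± 0.01, below 0 on 16 of 16 (exact permutation test, adjusted p = 9.16e-05). Chromosome 9 had the largest, -0.50, and chromosome 8 the smallest, -0.04. This value and those of the tandem promoter and all-intergenic classes passed under all 15 alternative settings, although normexp with loess shrank all 3 to about -0.09. The arrays then disagreed, with -0.15 on replicate 1 and -0.03 on replicate 2 for each of the 3. Not all of the 15 settings could alter these values. Centring on the mode, or not centring, shifts each array by a constant that cancels in such differences. Keeping only chromosomes with at least 3 subtelomeric probes of the class also left all 3 values as they were.

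**Figure D1:**
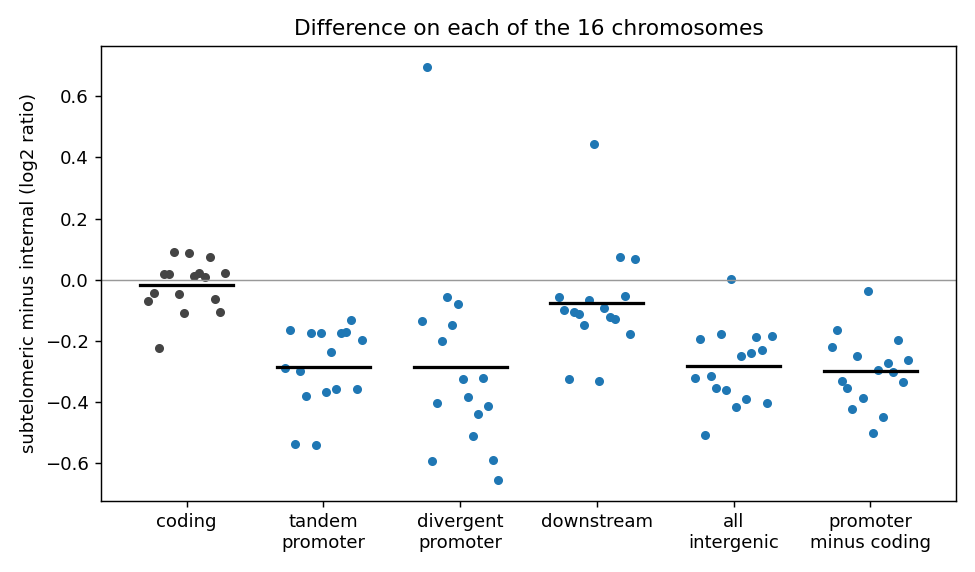
Each point is 1 chromosome's subtelomeric minus internal difference in log2 ratio (vertical axis) for the probe class on the horizontal axis, and bars are means over 16 chromosomes. The last column is the promoter minus coding contrast near the ends minus that inside. Tandem promoters and the contrast lie below 0 on 16 of 16 chromosomes, coding probes scatter around 0, and the high divergent point is chromosome 2 with 1 probe.

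The promoter difference was deepest in the outer 10 kb. Over the bins 0 to 5, 5 to 10, 10 to 15 and 15 to 20 kb, tandem promoter probes averaged -0.11, -0.14, 0.05 and 0.07. They averaged 0.19 between 20 and 30 kb, 0.24 between 30 and 40 kb and 0.29 beyond. The tandem promoter means thus went on climbing past the 20 kb border. Divergent promoter probes averaged -0.06, -0.05, 0.15 and 0.20 in the same 4 bins and 0.37, 0.35 and 0.42 further in. Coding probes stayed between -0.16 and -0.03 in all 7 bins. Downstream probes went from -0.16 in the outermost bin to 0.12 between 15 and 20 kb, where their median was -0.05, and averaged -0.08, -0.12 and 0.04 in the 3 bins further in, with no steady trend.

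Against the interior of the same chromosome, all intergenic probes were lower by -0.36 ± 0.02 at 0 to 5 kb on 15 of 15 chromosomes with such probes (exact permutation test, adjusted p = 0.000244 over 8 bins). They were lower by -0.38 ± 0.01 at 5 to 10 kb on 15 of 16 chromosomes (adjusted p = 0.000244, exact permutation test). At 10 to 15 kb the difference was -0.18 ± 0.01 (exact permutation test, adjusted p = 0.0308) and at 15 to 20 kb -0.19 ± 0.003 (adjusted p = 0.0151, exact permutation test). These bins pool promoter and downstream probes, and downstream probes made up 62 of 166 at 0 to 5 kb. No bin was tested within a single intergenic class. The call at 10 to 15 kb was lost without chromosome 3 (-0.16, adjusted p = 0.0612, exact permutation test), with medians (-0.11, adjusted p = 0.146) and with 60-nt probes (-0.15, adjusted p = 0.0926). The call at 15 to 20 kb was lost with medians (-0.11, adjusted p = 0.146, exact permutation test). No coding bin passed, with differences of 0.05, -0.05, -0.03 and 0.04 from the outermost bin inward and a lowest adjusted p of 0.105 (exact permutation test). In the outermost coding bin the equal-weight mean was above 0, although its probes averaged -0.16 over all chromosomes, with a median of -0.19. The difference was below 0 on 9 of 14 chromosomes. Its summaries thus differ in sign, and that bin has no settled sign.

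At the border itself intergenic values hardly changed. Intergenic probes of the last kb inside the window averaged 0.11 ± 0.02 (44 probes) and those of the first kb outside 0.10 ± 0.03 (34 probes). Coding probes averaged -0.06 ± 0.01 (51) just inside and -0.12 ± 0.02 (57) just outside. The 2 sides hold different probes, whose spread the SDs over arrays do not measure. Over single coding probes the SD was 0.28 at 15 to 20 kb and 0.31 at 20 to 30 kb. No test was made of the change at the border.

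**Figure D2:**
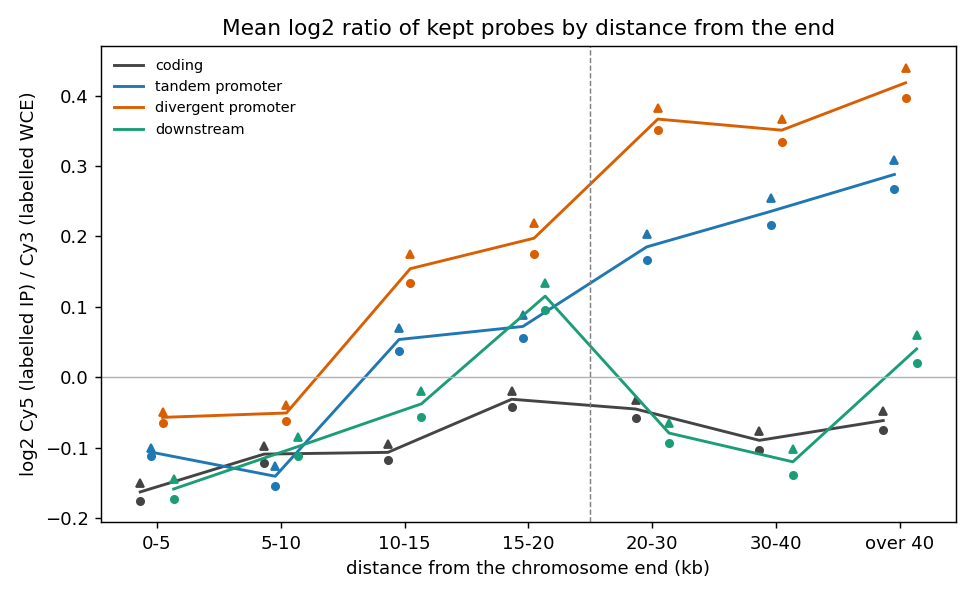
The vertical axis is the mean log2 ratio of kept probes and the horizontal axis the distance from the chromosome end in kb. Lines are means of both arrays, circles replicate 1, triangles replicate 2, and the dashed line marks 20 kb. Promoter classes rise from below 0 in the outer 10 kb to 0.29 (tandem) and 0.42 (divergent) beyond 40 kb, while coding probes stay between -0.16 and -0.03.

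The 2 channels did not contribute equally to the difference. In the Cy3 channel, labelled WCE, subtelomeric tandem promoter probes were brighter than internal ones by 0.27 ± 0.02 on the log2 signal scale, on 14 of 16 chromosomes. In the Cy5 channel, labelled IP, they differed by -0.02 ± 0.01. The median tandem promoter probe had a Cy3 signal of 34490 on replicate 1 and 33107 on replicate 2 near the ends, against 28414 and 26921 inside. Its Cy5 signal was 31378 and 33474 near the ends, against 32451 and 34458 inside. The lower promoter ratio near the ends therefore stood mostly in the Cy3 signal. Saturation in Cy3 was uneven, at 6.76% and 5.86% of subtelomeric tandem promoter probes on replicates 1 and 2, against 2.30% and 1.68% inside. For divergent promoters it was 5.74% on both arrays, against 1.40% and 0.90%. Without saturated probes the tandem promoter difference in ratio was -0.30. All intergenic probes gave 0.21 ± 0.01 in Cy3 and -0.08 in Cy5, divergent promoters 0.25 ± 0.01 and -0.04 ± 0.01, and coding probes 0.02 and 0.003. Downstream probes gave 0.06 ± 0.004 and -0.02 ± 0.01, so the pooled intergenic Cy5 value lay below that of each of its classes. Probe base composition and copy number were not available in the files, and their part in the Cy3 difference was not tested.

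**Figure D3:**
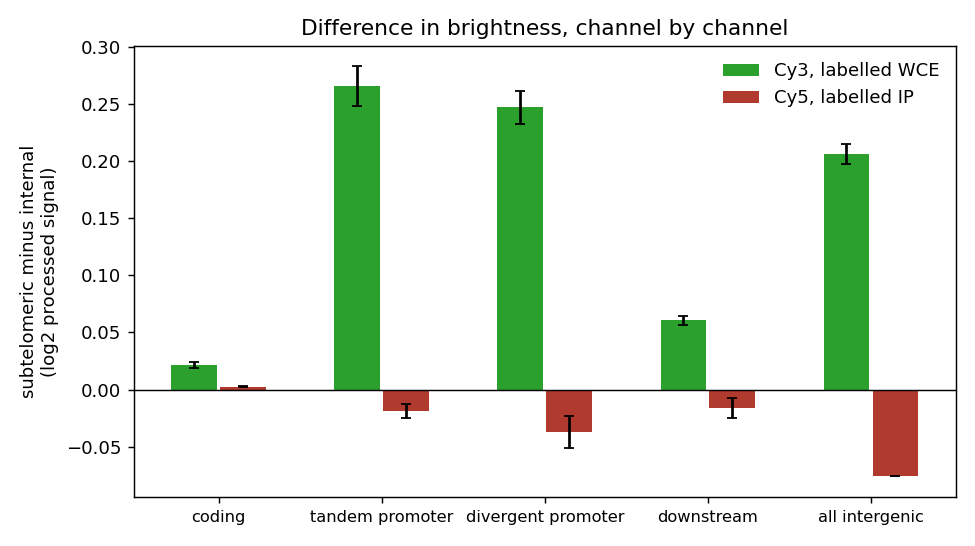
Bars show the subtelomeric minus internal difference in log2 processed signal (vertical axis) by probe class, for Cy3 (labelled WCE) and Cy5 (labelled IP), as means over 16 chromosomes with the SD over 2 arrays. The tandem promoter bar reaches 0.27 in Cy3 and -0.02 in Cy5.

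Single chromosome ends differed in the same direction for intergenic sequence. Among the 30 ends with at least 5 intergenic probes, 27 lay below the interior of their chromosome on both arrays, with a median difference of -0.29. The lowest were the left end of chromosome 7 at -0.53 (-0.53 and -0.54 on replicates 1 and 2), the right end of chromosome 3 at -0.53 (-0.52 and -0.55) and the left end of chromosome 15 at -0.46 (-0.46 and -0.46). The highest were the left ends of chromosome 4 at 0.14 (7 probes), chromosome 6 at 0.07 (15 probes) and chromosome 8 at 0.03 (32 probes). For coding probes, 13 of 26 ends lay below their interior, within a range of -0.26 to 0.16. The right end of chromosome 3 was the lowest coding end and the left end of chromosome 6 the highest.

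**Figure D4:**
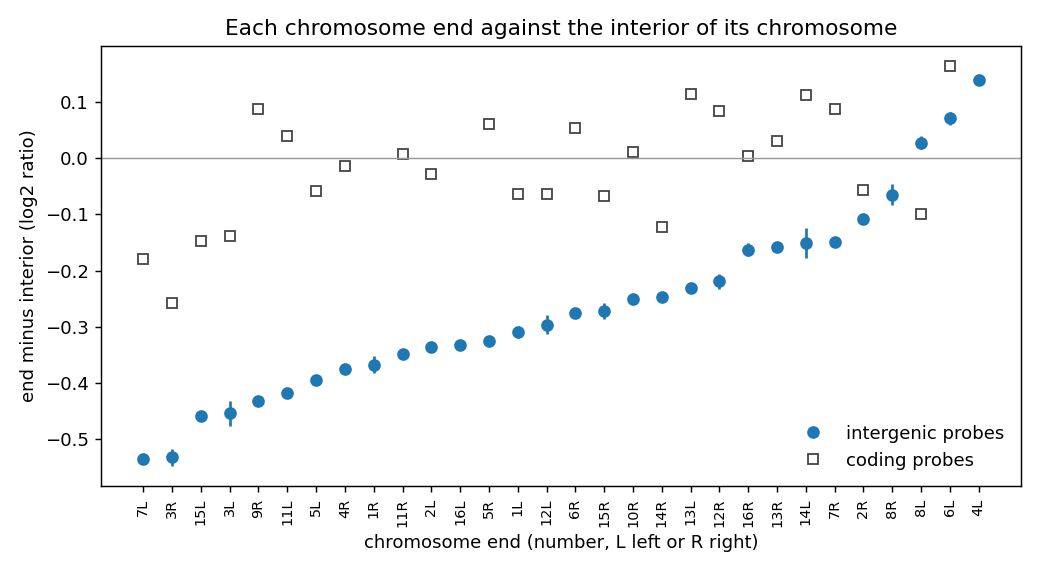
Each chromosome end with at least 5 intergenic probes is placed along the horizontal axis by its intergenic difference from the interior of its chromosome (vertical axis, log2 ratio). Filled circles are intergenic means with the range of the 2 arrays, and open squares coding means where 5 or more coding probes exist. Of 30 ends, 27 lie below 0 for intergenic probes, against 13 of 26 for coding probes.

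Calls for single probes were made against 0, the array median, with limma and a Benjamini-Hochberg adjusted p under 0.05. The fit gave each probe a common SD of 0.05, so it tests only the spread between these 2 arrays and small values pass. Of the 571 subtelomeric coding probes, 170 were higher and 260 lower, while 30.7% of all nuclear coding probes were called higher and 45.4% lower. The subtelomeric coding shares, 29.8% and 45.5%, were near that background. Of 444 tandem promoter probes, 157 (35.4%) were higher, with a background of 61.9%, and 201 (45.3%) lower, with a background of 23.4%. Of 122 divergent promoter probes, 60 (49.2%) were higher, against 73.9% of all divergent probes, and 35 (28.7%) lower, against 14.5%. Of 226 downstream probes, 69 (30.5%) were higher, against 39.5% in all, and 112 (49.6%) lower, against 43.0%. The promoter classes thus had fewer high and more low probes than their backgrounds. The split depended on the background correction. After normexp the common SD between arrays was 0.30, and 3 coding probes (all lower) and 5 intergenic ones (2 higher, 3 lower) passed.

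Unannotated probes near the ends were low as a set, at -0.27 ± 0.02 for 73 probes, against 0.21 ± 0.02 for the 52 internal ones. Of the 73, 49 (67.1%) were called lower (limma), against 13 of the 52 internal unannotated probes and 39.4% of all internal probes. No test was made of this difference. The 13 on the left end of chromosome 3 averaged -0.73 ± 0.03, and the highest of the 13 was -0.22. They include the lowest of all subtelomeric probes, at chr3:1451-1509, with -1.36 on replicate 1 and -1.26 on replicate 2. The third lowest subtelomeric probe, at chr3:2958-3017, with -1.15 and -1.13, is also among them. The 20 on the right end of chromosome 6 averaged -0.33 ± 0.01, while the 12 on the right end of chromosome 9 averaged 0.02 ± 0.02. The unannotated probes of different ends therefore did not share 1 level.

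The outermost kept probes varied widely. Of 32 such probes, of mixed classes and between 0 and 19615 bp from an end, 16 were higher, 8 lower and 8 not past the test. Over all subtelomeric probes 32.7% were higher and 45.8% lower, and over all internal ones 39.3% and 39.4%. The outermost values ran from -1.09 to 2.15. The highest of these lay in YLR466C-B, a small reading frame at the right end of chromosome 12, with 2.16 and 2.13 on replicates 1 and 2. It was followed by the last probe downstream of YAR075W on chromosome 1, at 1.66 on replicate 1 and 1.65 on replicate 2. The last probe of the right end of chromosome 13, downstream of YMR325W (PAU19), gave 1.34 on both arrays. The lowest was the tandem promoter probe of YML131W on the left of chromosome 13, at -1.16 and -1.01, 8447 bp from the end. At the left ends of chromosomes 1 and 15 the outermost probe was saturated in both channels on both arrays, and its ratio near 0 says little. In all, 5 of the 32 were saturated in some channel.

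At the right end of chromosome 1 the level changed sharply over a short distance. Downstream of YAR075W, 4 probes gave -1.16, -0.72, -0.29 and 1.66 in order toward the telomere, so neighbours within 1 kb ranged from among the lowest to among the highest ratios of the windows. The 3 nearer the gene were called lower and the last higher (limma).

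Coding regions were averaged over at least 2 kept probes, for the 105 genes that lay wholly within the windows. Of these, 30 were higher, 66 lower and 9 missed the threshold of 0.05 (limma, adjusted p), with a median of -0.10. Over all 4996 coding regions, 34.9% were called higher and 49.1% lower, and the internal median was -0.04. Subtelomeric promoters, from at least 1 probe, numbered 175, of which 73 were higher, 66 lower and 36 not past the test, with a median of 0.01. Over all 5175 promoters 70.8% were called higher and 16.3% lower, and the internal median was 0.24. Divergent promoters count for both of their genes. After normexp, 1 of the 105 coding regions and 0 of the 175 promoters passed in limma, with 23 coding regions lower, and 7 promoters higher and 5 lower, at an unadjusted p under 0.05. The common SD between arrays was then 0.16 for coding regions and 0.19 for promoters, against 0.03 and 0.05.

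The lowest coding region was COS12 on the left end of chromosome 7 (chr7:2910-3758), a member of the COS family of membrane proteins that help sort other membrane proteins to the vacuole. It measured -0.63 and -0.58 on replicates 1 and 2 (mean -0.61 ± 0.04, 5 probes, limma adjusted p = 2.42e-164). The low level was not limited to its coding sequence. Its 8 promoter probes, between chr7:876-935 and chr7:2686-2743, averaged -0.52 ± 0.01 and ran from -0.88 to 0.01, with 7 of 8 called lower.

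YFR057W, a gene at the right end of chromosome 6 known as a natural target of Sir silencing, measured -0.56 and -0.49 over 2 coding probes (mean -0.52 ± 0.05, limma adjusted p = 6.66e-125). Of the 8 probes of its tandem promoter, 7 were called lower, down to -0.88 at chr6:268069-268128, and the one farthest from the gene, at 0.02, did not pass. Its 2 downstream probes gave -0.46 and -0.44. Promoter, coding and downstream probes of this gene were thus low together, apart from that one.

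The other low coding regions were of mixed function. YCR102C on chromosome 3 measured -0.59 ± 0.03 and YNR074C (AIF1, homologous to a mitochondrial apoptosis-inducing factor) -0.53 ± 0.04. YHL044W (DFP4, of the DUP240 membrane protein family) gave -0.50 ± 0.02 and YGL262W -0.41 ± 0.05. AAD3, a putative aryl-alcohol dehydrogenase, gave -0.39 ± 0.05, and ARN2, a siderophore transporter that brings in chelated iron, -0.38 ± 0.001. All 6 were called lower (limma), from between 2 and 8 probes each. Most of these values shrank after normexp. YCR102C then stood at -0.21, YNR074C at -0.16, YHL044W at -0.14, AAD3 at -0.02 and YGL262W at -0.01, none past the test. COS12 stood at -0.35 and did not pass, whereas YFR057W, at -0.81, did (limma adjusted p = 0.00408).

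The highest coding region was DIA1 on the right arm of chromosome 13, a gene linked to invasive growth, at 0.46 on both replicates (3 probes, limma adjusted p = 1.07e-98). YBL107C (MIX23, a mitochondrial intermembrane space protein) measured 0.37 ± 0.07 and ARR1, the transcription factor of arsenic resistance, 0.34 ± 0.01. COS9 gave 0.31 ± 0.04. YIR036C (IRC24) and YIR035C (NRE1), adjacent putative dehydrogenases, gave 0.29 ± 0.03 and 0.25 ± 0.03, and HXK1 and YPL277C 0.24 ± 0.01 and 0.24 ± 0.04. These 8 lay between 3908 bp (ARR1) and 18731 bp (DIA1) from an end, and the 8 lowest between 487 bp (YFR057W) and 13791 bp (YHL044W).

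HXK1, the gene of a hexokinase that is made mainly when glucose is scarce, held the peak of the right end of chromosome 6. From the coding start outward along the promoter, 7 probes gave 0.84, 2.27, 1.99, 1.06, 0.43, -0.31 and -0.36 on replicate 1. On replicate 2 the same probes gave 0.89, 2.11, 2.02, 1.10, 0.52, -0.28 and -0.34. The second and the third, at chr6:255375-255434 and chr6:255655-255713, were among the 4 highest of all subtelomeric probes, although the second was saturated in Cy5 on replicate 2, which compresses its ratio there. The first 5 promoter probes were thus above 0 and the 2 on the far side below it. Within the coding region values ran from -0.60 to 0.77, with the highest at the end next to the promoter. The promoter mean was 0.85 ± 0.01 (limma adjusted p = 2.11e-144).

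A similar peak lay downstream of ARN1, a siderophore transporter gene, on the left of chromosome 8. The 7 downstream probes gave 2.10, 1.84, 0.95, 0.76, -0.29, -0.27 and -0.31 in order of rising coordinate from chr8:17580-17639. The first 4 were called higher and the last 3 lower (limma), on the side of the gene itself. These probes belong to the downstream class of chromosome 8, the chromosome with the highest downstream difference.

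The 2 highest promoters rested on 1 probe each. The promoter shared by YER188C-A and YER189W, at the last probe of chromosome 5, gave 1.24 and 1.22. The promoter shared by YBR296C-A and MAL33, the activator of a maltose gene cluster on chromosome 2, gave 1.09 and 1.29. The lowest promoter was that of YOL164W (BDS1, a sulfatase thought to have come from bacteria) on the left of chromosome 15, at -0.70 ± 0.03. Its 8 probes ran from -1.03 to -0.28 and 8 of 8 were called lower, while the coding region gave values from -0.87 to 0.11. The promoters of YAR075W (-0.63 ± 0.04) and YLR456W (-0.61 ± 0.05) followed, each with 1 probe. Those of YGL262W (-0.56 ± 0.02, 3 probes) and YGL258W-A (-0.54 ± 0.02, 1 probe) came next. For YAR075W, YLR456W and YGL258W-A the sign turned after normexp, to 0.05, 0.10 and 0.06, none past the test.

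Comparing promoter and coding region within a gene gave the same picture as the probe classes. The promoter exceeded the coding region in 58 of 98 subtelomeric genes (59.2%), by a mean of 0.08, and in 3465 of 4461 internal genes (77.7%), by a mean of 0.28. Within the windows the difference ran from -0.62 at YIR035C (NRE1), whose promoter stood at -0.37, to 1.10 at MAL33. No test was made over genes.

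The seripauperin genes (PAU, small cell wall mannoproteins made under stress and low oxygen) are a large family of these regions. Of 24 listed, 14 had subtelomeric promoters measured and no coding region with enough probes. Of the 14 promoters, 9 were lower and 4 higher, with a median of -0.16, against -0.01 for the 5 members with internal promoters. Of all subtelomeric promoters 37.7% were lower and 41.7% higher, and of all promoters 16.3% and 70.8%. PAU3 gave -0.51 and -0.50 (mean -0.50 ± 0.01) and YIR041W (PAU15) -0.35 ± 0.05 from 1 probe. YOL161C (PAU20) gave -0.32 ± 0.04. YAL068C (PAU8), at 0.40 ± 0.02 from 1 probe, and YHL046C (PAU13), at 0.26 ± 0.03, stood at the other end. The median stayed below 0 under every scaling tried, at -0.02 after normexp.

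COS genes ranged widely. Of 4 measured coding regions, COS12 (-0.61) and COS10 (-0.27 ± 0.01) were lower, and COS8 (0.22 ± 0.06) and COS9 (0.31) higher. Among all coding regions 49.1% were lower and 34.9% higher. Of 8 COS promoters 3 were lower, led by COS12, 2 higher and 3 not past the test. The higher ones were COS7 at 0.65 ± 0.01 from 1 probe and the promoter that COS6 shares with YRF1-3 at 0.55 ± 0.02. YRF1 genes encode helicases of the Y' elements at the very ends, and 2 of their 3 measured promoters were higher, with YRF1-1 at 0.66 ± 0.06 from 1 probe. Among all promoters 70.8% were higher and 16.3% lower, and among subtelomeric ones 41.7% and 37.7%.

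Maltose and sucrose genes, which lie in clusters of a permease, a hydrolase and an activator, had promoters near the level of promoters elsewhere. Of 8 subtelomeric promoters, 7 were higher, while 70.8% of all promoters were. Their median of 0.25 stood next to 0.24 over all internal promoters and 0.45 over the 4 internal members, of which 4 were higher. The other, YPR196W (-0.05 ± 0.03), did not pass (limma adjusted p = 0.158). MAL11 (a permease) and MAL12 (a maltase) share 1 promoter probe at 0.33 ± 0.02. YGR287C (IMA1, an isomaltase) and MAL13 (an activator) share 6 probes at 0.25 ± 0.02. The 6 coding regions were split, 2 higher and 3 lower, from MAL31 (permease) at -0.20 ± 0.02 and MAL13 at -0.15 ± 0.02 to MAL33 at 0.10 ± 0.04 and YGR287C at 0.20 ± 0.01. The last turned to -0.07 after normexp. Among all coding regions 34.9% were higher and 49.1% lower.

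Iron uptake genes had low coding regions within the windows. All 4 coding regions there were lower, while 62.9% of subtelomeric coding regions and 49.1% of all coding regions were. The 4 were ARN2 (-0.38), FRE2 (-0.24 ± 0.0004) and FRE5 (-0.23 ± 0.02), the latter pair ferric reductases, and FET4, a low-affinity iron transporter (-0.23 ± 0.02). Their median of -0.24 lay below the internal median of -0.06 over 11 iron uptake genes, of which 7 were lower. Of 3 promoters 2 were higher, FET4 (0.24 ± 0.05) and FRE2 (0.08 ± 0.04), with a median of 0.08, against 11 of 13 internal members, with a median of 0.24, and 70.8% of all promoters. That of ARN2, at -0.01 ± 0.04, did not pass and had no settled sign across settings.

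The aryl-alcohol dehydrogenase family had 3 higher coding regions, AAD6 (0.21 ± 0.01), AAD10 (0.16 ± 0.07) and AAD4 (0.16 ± 0.01). AAD3 was lower, and AAD14 (0.04 ± 0.04) did not pass. Among all coding regions 34.9% were higher and 49.1% lower. AAD10 and AAD14 turned to -0.01 and -0.01 after normexp, and the family median of 0.16 became -0.40 with 60-nt probes alone, where 1 member was measured, and -0.01 after normexp. Of 5 promoters 2 were higher, with AAD6, which shares its promoter with AGP3, at 0.36 ± 0.02, and 2 lower, with AAD15 at -0.36 ± 0.02 and AAD3 at -0.33 ± 0.09. Among all promoters 70.8% were higher and 16.3% lower.

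Of 4 coding regions of sulfur and amino acid transport 3 were lower, while 62.9% of subtelomeric coding regions and 49.1% of all coding regions were. MHT1 (a homocysteine methyltransferase, -0.19 ± 0.002), SEO1 (a putative permease, -0.19 ± 0.01) and MMP1 (the S-methylmethionine permease, -0.14 ± 0.04) were lower, and AGP3 (an amino acid permease, 0.12 ± 0.04) higher. MMP1 turned to 0.04 after normexp. Of the 4 promoters 1 was higher, 2 lower, from the single probe that MHT1 and MMP1 share (-0.07 ± 0.02), and 1 did not pass. Among all promoters 70.8% were higher and 16.3% lower. PHO89, a phosphate transporter, had a coding mean of -0.09 ± 0.03 and a promoter mean of 0.51 ± 0.03. Its 5 promoter probes ran from -0.20 next to the gene to 1.25 at the far end. The promoters of PHO11 and PHO12, acid phosphatases, did not pass, at 0.05 ± 0.08 and -0.01 ± 0.07 from 1 probe each.

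Among the remaining lists, few members lay within the windows. DAN1 and DAN4, cell wall mannoproteins of anaerobic cells, had promoters at -0.02 ± 0.03 and 0.03 ± 0.05, neither past the test, and of their coding regions DAN4 (-0.07 ± 0.03) was lower and DAN1 (-0.02 ± 0.01) did not pass. The promoter of HXT17, a hexose transporter, was lower at -0.32 ± 0.05 and turned to 0.10 after normexp. That of BIO2, biotin synthase, was higher at 0.17 ± 0.01. YEL070W (DSF1, a mannitol dehydrogenase) had a higher promoter, 0.38 ± 0.02, and FDH1, formate dehydrogenase, did not pass at 0.06 ± 0.004. Neither of the 2 enolase-related promoters passed, at 0.01 ± 0.04 for ERR1 and -0.01 ± 0.03 for YMR323W (ERR3).

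**Figure D5:**
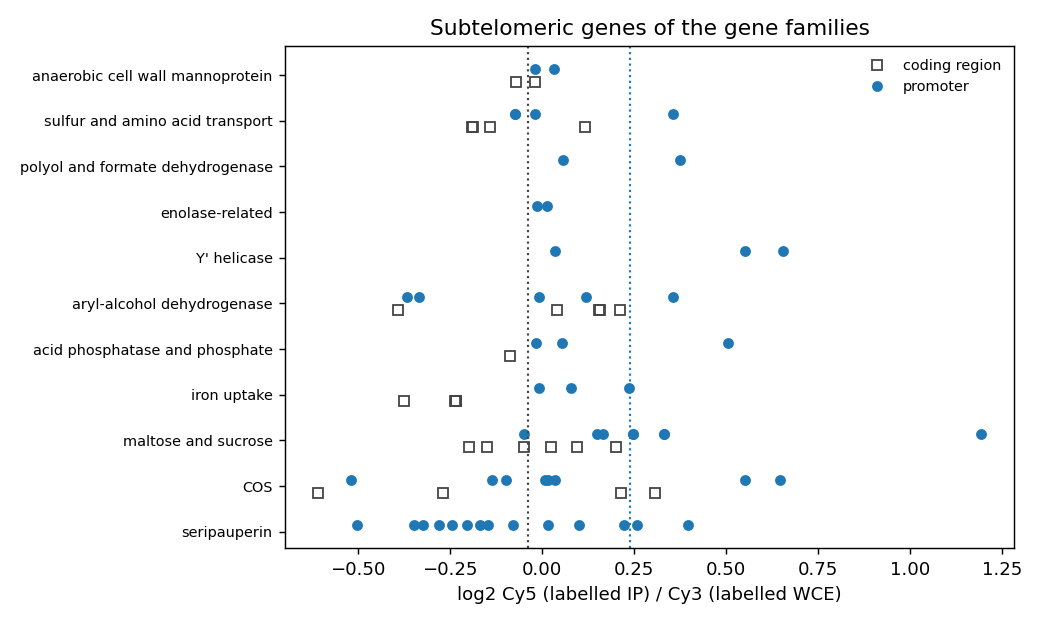
Each symbol is 1 subtelomeric gene, placed by its log2 ratio (horizontal axis) in the row of its family, as an open square for the coding region and a filled circle for the promoter. Dotted lines mark the internal medians, -0.04 for coding regions and 0.24 for promoters. Of 14 seripauperin promoters 9 are lower than 0 past the test, and 7 of 8 maltose and sucrose promoters are higher. Among all promoters 16.3% are lower and 70.8% higher. Under normexp almost no call passes.

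The silent mating cassettes on chromosome 3, where Sir proteins keep unexpressed copies of the mating-type genes, were represented within the windows by 4 probes. These lay downstream of HMLALPHA1, at -0.30 ± 0.06, 0.98 ± 0.08, -0.27 ± 0.02 and -0.34 ± 0.01 in order of rising coordinate from chr3:13987-14046. The single high probe, at chr3:14178-14236, gave 0.92 and 1.04 on the 2 arrays and stood between low neighbours. No flocculin gene and no gene of telomerase or Ku lay wholly within the windows.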

How the data were processed

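Myc-H3 chromatin was hybridised against input on 2 two-colour arrays, which form 1 group. Per the file headers, Agilent Feature Extraction 9.1.3.1 turned spot intensity into processed signals by subtracting background, detrending and a linear normalisation of the dyes on each array. In a value table deposited by the authors, log2 ratios equal log2 of processed Cy5 over Cy3 within 5.00e-06. This settles the scale and that Cy5 is the numerator, but not which dye holds the precipitate. That table is not centred, with medians of 0.03 and -0.002, and served as a check.

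Processed signals gave a log2 ratio per probe, from which the median of its array was subtracted, without loess. A probe marked as a population outlier or as non-uniform in any channel was dropped, as was one whose Cy3 was not well above background on 1 or both arrays. This kept 40890 of 41775 probes. Saturated spots were kept, and the number of arrays limits the precision. Classes and gene names came from the array's annotation, and 5442 of 5465 names of genes with coding probes matched the R64 gene table, which supplied current symbols only.

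Within-class differences were computed for each chromosome and tested over 16 chromosomes by an exact permutation test (sign flips, two-sided), with Benjamini-Hochberg adjustment over 6 comparisons and over 8 distance bins. Probes, coding regions (at least 2 probes) and promoters were tested against 0 with limma 3.58.1 in R 4.3.3 at an adjusted p of 0.05. The fit of probes and its adjustment took all 40890 kept probes, mitochondrial ones included. Those of coding regions and promoters took nuclear rows only. Both procedures were tested on simulated data. Brightness in each channel and the families were described without a test. The 16 gene family lists, the members and the alternatives were chosen with earlier results of these data known.

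The text names, among those past the test, 8 coding regions at either extreme and 5 promoters at either extreme. It also names at most 2 members from the top and 2 from the bottom of a list, for coding regions and promoters, the 4 highest and 4 lowest probes, some of the outermost probes, the 3 highest and 3 lowest ends and the silent mating loci. Individual probes of single genes, chromosome 3 and chromosome 6 were shown after their values were seen, as were YPR196W and the unannotated probes. Alternatives were the window, the background correction and normalization, the centring, the filters on spots and probe length, medians, and leaving out 1 array. Probe sequences were not in the files used here, so no sequence, base composition or cross-hybridisation was analysed.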

Additional observations from a re-analysis of the deposited data

How the results depend on the processing

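The all-intergenic, tandem promoter and promoter minus coding differences stayed below 0 and past the test in all 15 alternatives, from -0.35 to -0.09, -0.31 to -0.09 and -0.44 to -0.09. The 15 include changes of centring, which cancel in these differences and so could not alter them. They also include a minimum of 3 subtelomeric probes per chromosome, which left these values unchanged. No paired analysis was possible because the study has 1 group. Corrections for base composition or near-identical probes were not run, since the files used here hold no probe sequences. Calls of probes and genes could not be recomputed without 1 array, which leaves no residual degrees of freedom, and the differences kept their calls without either array. The cause of the changes below was not tested unless stated. Saturated probes and 1 SD shared by all rows limit the calls, and dim probes were few.

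In a 10 kb window the coding difference, as an equal-weight mean over chromosomes, was 0.0591 (adjusted p = 0.992, exact permutation test). It was below 0 on 11 of 16 chromosomes, and with all probes pooled it was -0.0692, so its sign depends on the weighting. The downstream difference was -0.19 (adjusted p = 0.000977, exact permutation test). With 60-nt probes alone the coding difference was -0.0467 (adjusted p = 0.0377, exact permutation test) and the downstream one -0.0828 (adjusted p = 0.0394). Divergent promoters no longer passed after normexp and loess (-0.0530, adjusted p = 0.277, exact permutation test) or with medians (-0.19, adjusted p = 0.0589). The coding bin at 0 to 5 kb turned to -0.0225 after normexp and loess, -0.0975 with 60-nt probes and -0.00561 with medians. That at 10 to 15 kb turned to 0.00105 after normexp and loess, and that at 15 to 20 kb to -0.00609 with 60-nt probes. The coding bin at 5 to 10 kb passed after normexp and loess (-0.0312, adjusted p = 0.0187, exact permutation test). The intergenic bin at 10 to 15 kb no longer passed with 60-nt probes (-0.15), medians (-0.11) or without chromosome 3 (-0.16, added after seeing the data), nor that at 15 to 20 kb with medians (-0.11).

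Counts followed the window. At 10 kb, 39 coding probes were higher and 89 lower, 94 intergenic probes higher and 203 lower, 5 coding regions higher and 23 lower, and 25 promoters higher and 42 lower. At 30 kb, 392 coding probes were higher and 536 lower, and 493 intergenic probes higher and 448 lower. Coding regions then split into 76 higher and 114 lower, and promoters into 157 higher and 80 lower. The number of features changes with the window, so these counts are not shares. Over all nuclear coding probes the shares were 30.7% higher and 45.4% lower. They were 34.9% and 49.1% over all coding regions, and 70.8% and 16.3% over all promoters. After normexp, limma called 0 coding probes higher and 3 lower, 2 intergenic probes higher and 3 lower, 0 coding regions higher and 1 lower, and 0 promoters in either direction. At an unadjusted p under 0.05 these were 0, 86, 11, 85, 0 and 23, with 7 promoters higher and 5 lower. After normexp and loess limma called 0 probes, coding regions or promoters, with 10 coding regions higher and 11 lower, 2 promoters higher and 0 coding or intergenic probes at an unadjusted p under 0.05. The median of all promoters then moved by -0.15. Centring on the mode left 108 coding probes and 18 coding regions higher, and 60-nt probes 95 and 17, where fewer probes were tested.

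Among named genes, signs turned after normexp in AAD10 (-0.00624), AAD14 (-0.0110), YGR287C (-0.0742) and MMP1 (0.0387) coding regions. They also turned in the promoters of YAR075W (0.0487), YLR456W (0.103), YGL258W-A (0.0600), HXT17 (0.103) and DAN1 (0.0397, and 0.0258 with loess). The ARN2 promoter turned after normexp and loess (0.0194), without centring (0.00360) and without saturated probes (0.00723).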
